A study of Tetranychus urticae with 12 samples.

Results

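A set of 62 genes, of 19114 in the deposited count table, was read at graded levels in 3 strains of the two-spotted spider mite Tetranychus urticae, highest in BC2018-14, intermediate in Trizina and lowest in London. Expression was measured by paired-end mRNA sequencing of whole bodies. The strains were Trizina, a multi-resistant field strain, and London and BC2018-14, which the series describes as susceptible; all were untreated and were reared on kidney bean without insecticide exposure, per the labels. The labels gave 4 libraries per strain, and genome-wide counts were used for 4 BC2018-14, 4 Trizina and 3 London libraries (2, 3 and 4), with total counts per library of 26090006 to 39875401. The labels give neither sex nor age, and do not state that the libraries of 1 strain are from different cultures. All p-values then refer only to how these libraries vary, which can be technical variation.

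The genes were selected on measured values. CPM (reads per gene scaled to the library total) was computed on the column totals, and a member had to have a BC2018-14 mean at least 1.7 times the Trizina mean, a Trizina mean at least 1.7 times the London mean and a London mean of at least 0.2 CPM. In addition, the lowest library of each higher strain had to lie above the highest library of the next strain. The 100 most abundant genes and 2 ranges of neighbouring gene IDs, on scaffolds 11 and 6, were left out, and 2 further genes met the conditions within the excluded ranges. The separation of the strains is therefore how the genes were chosen, and the levels below are descriptions with no test.

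The two-spotted spider mite feeds on a very wide range of plants by piercing leaf cells, and it is known for evolving resistance to acaricides rapidly. Resistance in this species is commonly traced to changed target sites and to raised expression of detoxification enzymes and transporters. Strains kept apart also differ in transcript level for reasons not tied to resistance. Here the resistant strain lay between the susceptible strains by construction. None of the files names a gene beyond its ID, and of the 14930 genes listed by RefSeq 0 could be matched to an ID, so members are named by ID and no function is given.

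The members were genes of low to moderate abundance. Across the 62 members, the median of the strain means was 12.6 CPM in BC2018-14, 4.55 CPM in Trizina and 1.697 CPM in London. The 14148 genes that met the same London minimum and were not left out, called eligible genes here, had medians of 18.4, 19.0 and 17.6 CPM. The members thus lay below the typical eligible gene in all 3 strains, and furthest below it in London. There were 25 members under 1 CPM in London and 6 at 10 CPM or more, whereas 3 members reached 100 CPM in BC2018-14. In 14 members at least 1 London library held fewer than 10 counts, and the fewest was 1 count, against 12 in a Trizina library and 20 in a BC2018-14 library.

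Summed over the members, the level was 1878 ± 114 CPM in BC2018-14 (SD, n = 4), 863 ± 36.0 CPM for Trizina (SD, n = 4) and 241 ± 10.1 CPM in London (SD, n = 3). The 2 members with the highest mean over the 11 libraries, tetur35g01130 and tetur35g01150, supplied 35.9% of this sum in BC2018-14, 43.1% in Trizina and 24.4% in London. Without them the sums were 1203 ± 70.4, 491 ± 19.0 and 182 ± 9.46 CPM, in the same order.

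**Figure D1:**
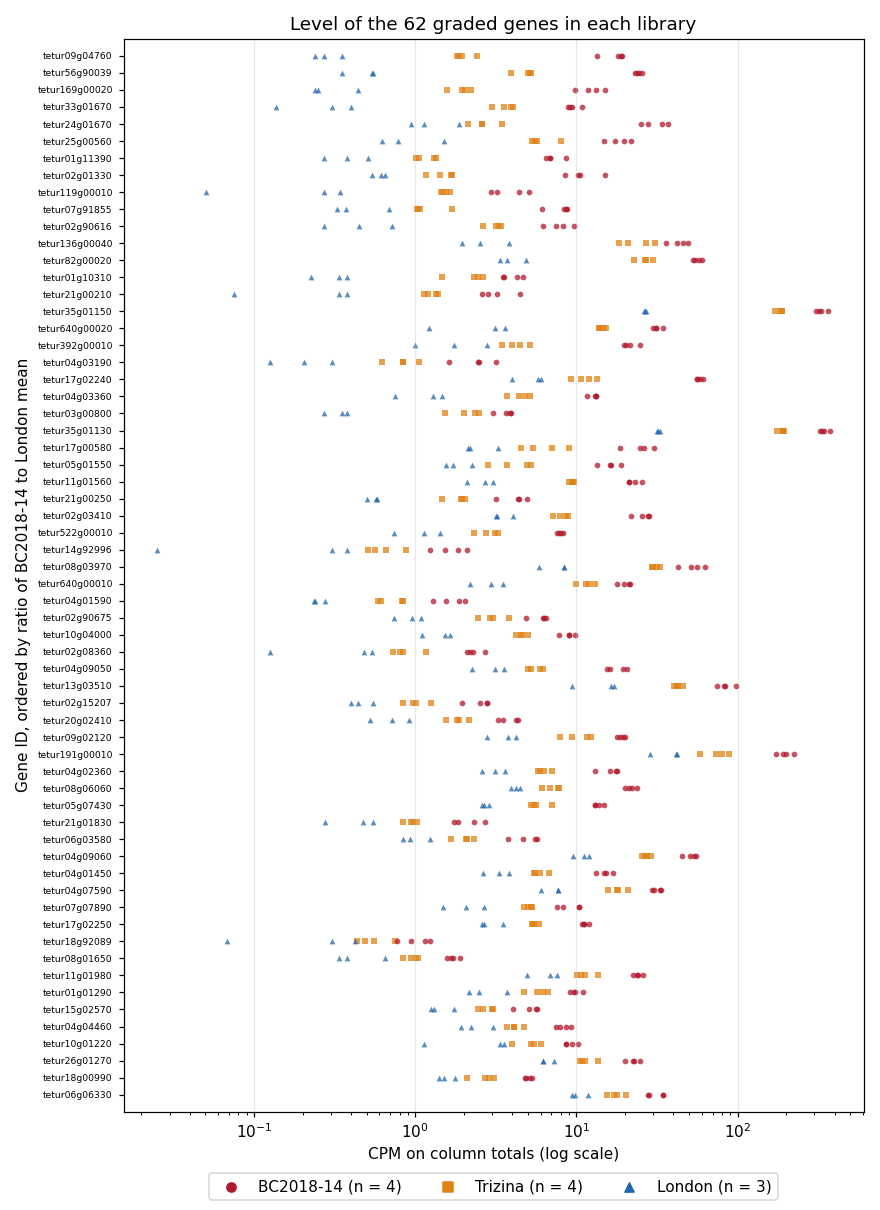
CPM on column totals (log scale) of each of the 62 graded genes in each library, 1 row per gene, ordered by the ratio of the BC2018-14 mean to the London mean. Circles are the 4 BC2018-14 libraries, squares the 4 Trizina libraries and triangles the 3 London libraries; by the selection, the strains do not overlap in any row, and the London libraries of tetur14g92996 span 0.0251 to 0.376 CPM.

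The size of the gradient differed widely among the members. The ratio of the BC2018-14 mean to the London mean had a median of 6.98, from 3.01 to 60.6, and was at least 10 in 23 members. The step from Trizina to BC2018-14 had a median of 2.35, from 1.703 to 11.55, and the step from London to Trizina a median of 2.57, from 1.7002 to 12.9. For the eligible genes the medians of these 3 ratios were 1.16, 1.05 and 1.11. The upper step was the larger in 28 members and the lower step in 34. Few members had 2 steep steps, since 9 members had an upper step of at least 5, 14 had a lower step of at least 5, and 3 had both.

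**Figure D2:**
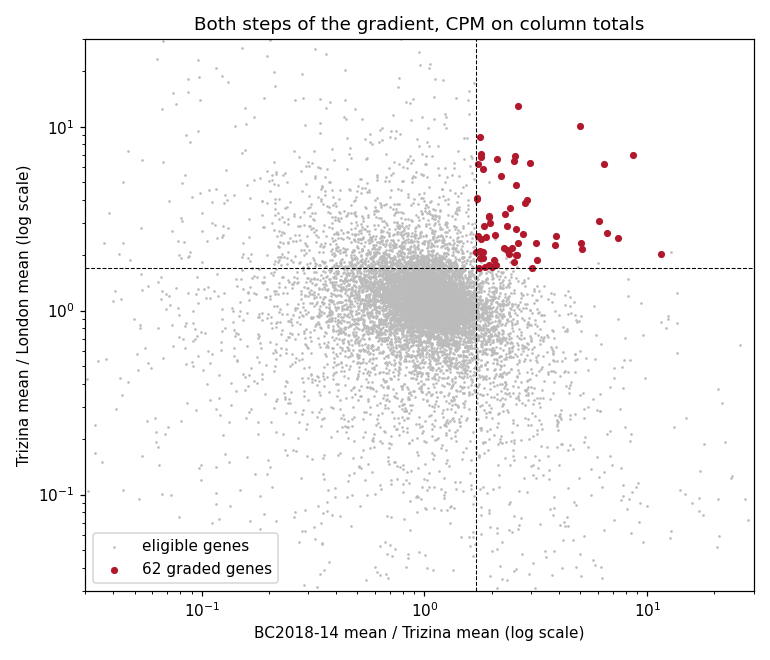
Ratio of the BC2018-14 mean to the Trizina mean (x axis, log scale) against the ratio of the Trizina mean to the London mean (y axis, log scale), CPM on column totals. Grey points are eligible genes, of which 532 lie outside the axes, red points are the 62 graded genes, and dashed lines mark the limit of 1.7; 3 of the red points have both ratios at 5 or more.

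The 6 members with the widest gradient were tetur09g04760, tetur56g90039, tetur169g00020, tetur33g01670, tetur24g01670 and tetur25g00560. The first, tetur09g04760, had 18.1, 19.0, 13.4 and 19.1 CPM in BC2018-14 libraries a, b, c and e, 2.44, 1.94, 1.86 and 1.81 CPM in Trizina libraries 4 to 7, and 0.239, 0.271 and 0.351 CPM in London libraries 2 to 4. Its libraries formed 3 well separated groups, with the BC2018-14 mean 8.64 times that of Trizina and the Trizina mean 7.02 times that of London. London supplied only 29 counts in all, so the lower step rests on few reads.

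For tetur56g90039 the values were 25.5, 23.1, 24.5 and 23.8 CPM in BC2018-14, 5.19, 3.95, 5.15 and 5.03 CPM in Trizina and 0.547, 0.541 and 0.351 CPM in London. Trizina library 5 was the low one of its strain, and still far above the highest London library. The upper step was 5.02-fold and the lower step 10.1-fold. The gene tetur169g00020 had nearly equal steps, of 6.41-fold and 6.28-fold, with 12.5 ± 2.23 CPM in BC2018-14 (SD, n = 4), 1.94 ± 0.274 CPM for Trizina (SD, n = 4) and 0.310 ± 0.113 CPM in London (SD, n = 3). These 3 genes were the members with both steps of at least 5.

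In other members 1 step made up most of the gradient. The gene tetur24g01670 had 34.0, 25.1, 28.0 and 37.3 CPM in BC2018-14, 3.44, 2.601, 2.12 and 2.61 CPM in Trizina, and 1.88, 0.947 and 1.13 CPM in London. BC2018-14 stood far above both other strains, by 11.55-fold over Trizina, while Trizina library 6 lay just above London library 2 and the lower step was 2.04-fold. The gene tetur02g01330 had the same shape, with steps of 7.43-fold and 2.47-fold around 1.49 ± 0.246 CPM in Trizina (SD, n = 4).

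The reverse shape was seen in tetur136g00040, which had 35.8, 41.9, 46.0 and 49.0 CPM in BC2018-14, 20.9, 30.8, 27.1 and 18.4 CPM in Trizina and 1.95, 2.54 and 3.84 CPM in London. The Trizina libraries lay far above London, by 8.76-fold between means, and their mean was 1.78-fold below that of BC2018-14. In tetur33g01670 the lower step was 12.9-fold, the largest among the members, and the upper step 2.64-fold. London had 0.281 ± 0.134 CPM of it (SD, n = 3), from 29 counts in all. In tetur25g00560 the steps were 2.99-fold and 6.35-fold, and Trizina library 6, at 8.03 CPM, stood above the other 3, which had 5.34 to 5.71 CPM.

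The smallest gradient, and after tetur169g00020 the most even, was that of tetur06g06330, with 31.1 ± 3.64 CPM in BC2018-14 (SD, n = 4), 17.7 ± 1.95 CPM for Trizina (SD, n = 4) and 10.3 ± 1.27 CPM in London (SD, n = 3). Its steps of 1.76-fold and 1.71-fold were just over the limit. Just inside the limit for the upper step was tetur01g01290 at 1.703 and just outside was tetur19g02250 at 1.692. For the lower step, tetur08g06060 stood at 1.7002 and tetur03g00290, left out, at 1.696. At the London minimum, tetur04g03190 had 0.212 CPM and tetur05g06800, left out, 0.138 CPM. Every condition except the upper step was met by 143 genes, every condition except the lower step by 56, and every condition except the London minimum by 47.

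The members with the highest mean CPM over the 11 libraries, not divided by gene length, were tetur35g01130 and tetur35g01150, although in London tetur191g00010 was higher than both, with a mean of 37.3 CPM. The former had 344, 324, 336 and 374 CPM in BC2018-14, 175, 195, 192 and 193 CPM in Trizina, and 32.0, 33.1 and 31.7 CPM in London. The latter had 329, 308, 319 and 365 CPM in BC2018-14, 171, 188, 190 and 184 CPM in Trizina, and 26.5, 27.2 and 26.3 CPM in London. BC2018-14 library e was the highest and Trizina library 4 the lowest of its strain for both genes. Their steps were 1.83-fold and 5.85-fold for the first and 1.80-fold and 6.87-fold for the second. They were also the members with the smallest spread within strains, with a root mean square SD of log2(CPM + 0.1) of 0.0682 and 0.0749, against a median of 0.242 for the members and 0.225 for the eligible genes. The next smallest was tetur08g06060 at 0.124, with 21.1, 22.1, 20.004 and 23.8 CPM in BC2018-14, 7.73, 6.10, 6.90 and 7.79 CPM in Trizina and 4.20, 4.47 and 3.91 CPM in London.

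The other 4 abundant members had shallower lower steps. The gene tetur191g00010 had 193, 173, 198 and 223 CPM in BC2018-14, 58.5, 88.6, 80.6 and 73.4 CPM in Trizina, and 42.3, 41.2 and 28.5 CPM in London. Its London library 4 lay apart from the other 2, and its steps were 2.62-fold and 2.02-fold. The gene tetur13g03510 had 84.7 ± 9.77 CPM in BC2018-14 (SD, n = 4), 42.9 ± 2.32 CPM for Trizina (SD, n = 4) and 14.2 ± 4.24 CPM in London (SD, n = 3). The steps of tetur08g03970 were 1.72-fold and 4.09-fold, and those of tetur04g09060 were 1.88-fold and 2.51-fold.

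The widest spreads belonged to tetur14g92996, tetur18g92089 and tetur10g01220, at 0.655, 0.548 and 0.536 on the log2 scale. In each of these 1 London library stood apart. The gene tetur14g92996 had 0.376 and 0.304 CPM in London libraries 2 and 3 but 1 read, 0.0251 CPM, in library 4. In tetur18g92089 it was London library 2 that was low, at 0.0683 CPM against 0.304 and 0.426 CPM, and in tetur10g01220 library 2 of London had 1.13 CPM against 3.38 and 3.54 CPM. Over all members the median SD of log2(CPM + 0.1) was 0.315 in London, 0.190 in Trizina and 0.165 in BC2018-14, and over the eligible genes it was 0.252, 0.149 and 0.140.

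Single libraries leaned slightly to 1 side across the members. BC2018-14 library e was above the mean of its strain in 45 of 62 members and library b in 15 of 62, with median log2 differences from that mean of 0.11 and -0.10, against 0.02 and -0.02 over the eligible genes. Trizina library 7 was above its strain mean in 40 of 62 members (64.5%) and in 54.9% of the eligible genes. London library 4 was above its strain mean in 21 of 62 members (33.9%) and in 46.9% of the eligible genes. These shifts were small beside the steps between strains.

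In the fit across all genes, every member passed the filter on low counts and was tested (edgeR's quasi-likelihood test on the 11 libraries, called at a Benjamini-Hochberg adjusted p below 0.05 and a log2 fold change of at least 1). Between BC2018-14 and Trizina, 35 of 62 members were called higher in BC2018-14, where 5.18% of all 14394 tested genes were called in that direction. Between Trizina and London, 38 of 62 were called higher in Trizina, against 7.62% of all tested genes. Between BC2018-14 and London all 62 were called higher in BC2018-14, against 7.68%. The same contrasts had chosen the members, so nothing is read from these counts. Both steps were called in 22 members, the upper step alone in 13, the lower step alone in 16 and neither in 11. Median fitted log2 fold changes of the members were 1.15, 1.19 and 2.55 in the 3 comparisons, with -0.01, 0.00 and 0.00 over all tested genes.

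In the authors' deposited table for Trizina and London, 23 of the members are listed, each as higher in Trizina. Their table for Trizina and BC2018-14, also the authors' deposited table, lists 14, each as lower in Trizina. Only tetur09g04760, tetur56g90039 and tetur169g00020 are in both, and 28 members are in neither. Of all 19114 genes, the authors list 1458 and 967 in these comparisons, in either direction. Of the 1458, 593 are listed as higher in Trizina than in London. The directions follow from how the members were chosen, so nothing is read from these counts. Both tables rest on the same libraries of their strains, and the one for Trizina and London also holds London library 5.

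The scaling of the libraries bears on the graded order itself. TMM factors, which correct for a few abundant genes taking up reads, ranged from 0.874 to 0.918 over the London libraries, from 1.00 to 1.02 over Trizina and from 1.06 to 1.09 over BC2018-14, so that levels on column totals run low in London and high in BC2018-14 relative to TMM levels. Among genes with at least 0.2 CPM in every strain, the means followed the order BC2018-14, Trizina, London in 37.0% of 13079 genes on column totals and in 20.4% of 13087 genes with TMM. With TMM the lowest step of the members was 1.51, and their median ratio of BC2018-14 to London was 5.86 in place of 6.98. Factors this close together could not reverse steps chosen to be at least 1.7, so that the direction was kept says nothing. Applied to TMM levels, the same conditions chose 43 genes, all of them among the 62. With these factors TMM lowers both steps of every gene, so only the London minimum could have let in a gene outside the 62.

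The mirror order, with London highest and BC2018-14 lowest, held more genes, with 131 on column totals and 166 with TMM. In each order the minimum of 0.2 CPM was set on the lowest strain of that order, so the orders drew on different sets of genes. The remaining 4 orders held between 30 and 59 genes on column totals and between 26 and 60 with TMM. The order described here was thus exceeded by 1 order on column totals and by 3 with TMM. The difference from the mirror order was not tested. The median spread within strains was 0.452 on the log2 scale for the mirror-order genes, 0.242 for the 62 members and 0.225 for the eligible genes. This spread can depend on level, and levels of the mirror-order genes were not summarised, so nothing is read from their difference from the members.

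**Figure D3:**
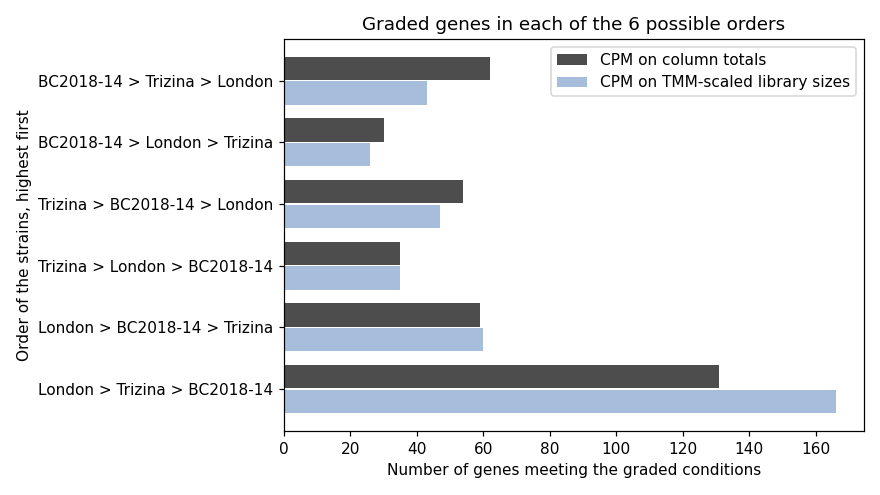
Number of genes meeting the graded conditions (x axis) in each of the 6 possible orders of the strains (y axis, highest strain first), with CPM on column totals (dark bars) and on TMM-scaled library sizes (light bars). The order described here holds 62 and 43 genes, and the mirror order holds 131 and 166. The minimum of 0.2 CPM is set on the lowest strain of each order.

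Position was not used to choose the members, apart from the excluded ranges. In the numbering of this species an ID gives the scaffold and then a number, and neighbours here are IDs adjacent in that numbering. No coordinates were used. For the 6 members whose number starts with 9, which sort last on their scaffolds, the true neighbours may differ. The members lay on 32 of 417 scaffolds, with at most 9 on 1 scaffold, scaffold 4, which holds 977 IDs. The larger scaffolds 1, 2 and 3, with 1722, 1539 and 1029 IDs, held fewer members, at 3, 6 and 1. This difference was not tested. Members directly beside another member numbered 6 (9.68%), in 3 pairs, and of the mirror-order genes 20 of 131 (15.3%) lay beside another. Such a share grows with the size of a set, so these 2 shares cannot be compared. No share for sets drawn from all genes was computed. The pair on scaffold 640 makes up all 2 IDs of that scaffold. Of 74 eligible flanking genes that were no members, 30 (40.5%) had means in the same order, against 33.9% of 14086 eligible genes that were no members, and their median ratio of BC2018-14 to London was 1.36, against 1.16.

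Some members lay on very small scaffolds. On scaffolds of at most 10 IDs, a limit set after the values had been seen, lay 9 of 62 members (14.5%), 11 of 131 mirror-order genes (8.40%) and 346 of 14148 eligible genes (2.45%). The 9 members were tetur82g00020, tetur119g00010, tetur136g00040, tetur169g00020, tetur191g00010, tetur392g00010, tetur522g00010, tetur640g00010 and tetur640g00020. Their median ratio of BC2018-14 to London was 12.02, from 5.27 to 40.2, against 6.26 for the other 53 members. These differences in share were not tested. IDs whose number within the scaffold starts with 9 and has 5 digits made up 6 of 62 members (9.68%) and 4.51% of the eligible genes.

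Within pairs at most 1 ID apart the members did not always follow each other. The ratio of 1 gene's counts to the other's within a library needs no scaling, and only its change between strains is read here, since gene lengths are not used. In tetur35g01130 and tetur35g01150, which have 1 ID between them, the ratio was 1.04 ± 0.0150 in BC2018-14 (SD, n = 4), 1.03 ± 0.0135 for Trizina (SD, n = 4) and 1.21 ± 0.00618 in London (SD, n = 3). The London libraries, from 1.21 to 1.22, lay above all others, which ran from 1.02 to 1.06. London library 5, which the selection did not use, had 1017 and 827 counts, a ratio of 1.23, also above all 8 libraries of the other strains. The gene between them, tetur35g01140, was not graded, with 64.0 ± 6.12 CPM in BC2018-14 (SD, n = 4), 60.1 ± 4.20 CPM for Trizina (SD, n = 4) and 31.9 ± 2.15 CPM in London (SD, n = 3).

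For tetur17g02240 and tetur17g02250 it was BC2018-14 that stood apart, with a ratio of 4.99, 4.91, 5.14 and 5.41 in its libraries. Trizina had 2.19, 1.73, 1.99 and 2.27, and London 1.72, 2.15 and 1.55, so these strains overlapped. Both genes were graded, but the upper step was 5.09-fold for tetur17g02240 and 2.04-fold for its neighbour. For tetur04g09050 and tetur04g09060 the ratio was 0.348 ± 0.0287 in BC2018-14 (SD, n = 4), 0.206 ± 0.0236 for Trizina (SD, n = 4) and 0.276 ± 0.0655 in London (SD, n = 3), and London overlapped both. For tetur640g00010 and tetur640g00020 it was 0.630 ± 0.0496, 0.813 ± 0.112 and 1.25 ± 0.503, with 1 London library as high as 1.81 and another among the Trizina values; London library 5 had 1.40.

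**Figure D4:**
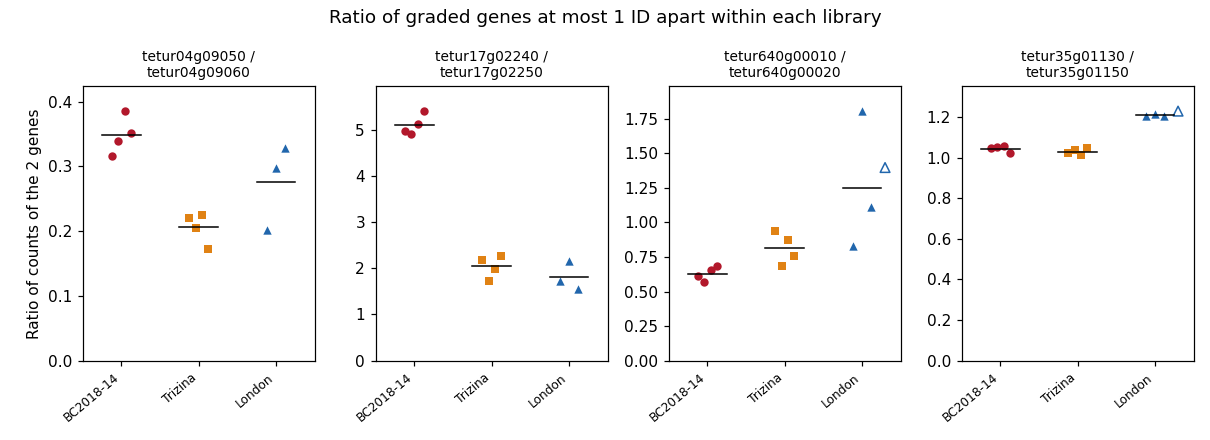
Ratio of the counts of 2 graded genes within each library (y axis, from 0), by strain (x axis), for 3 pairs of neighbouring genes and for the scaffold 35 pair, which has 1 gene between its members. Filled symbols are libraries, black lines strain means and open triangles London library 5; the ratio of the scaffold 35 pair is 1.02 to 1.06 in BC2018-14 and Trizina and 1.21 to 1.23 in London, and that of the scaffold 17 pair is about 5 in BC2018-14 alone.

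London library 5 was a library that the selection had not used. Its counts were held only for genes in the authors' deposited table for Trizina and London, and they were scaled to the mean of London libraries 2, 3 and 4 by the median ratio over the listed genes. In all 23 listed members library 5 lay below the lowest Trizina library, and the smallest gap was 2.57-fold. The same was so for 99.7% of the 593 genes the table lists as higher in Trizina, which were listed with library 5 among the libraries tested, so the count says nothing particular to the members. Against the other London libraries, 12 of the 23 values fell within their range, 6 above and 5 below it, and the median ratio to their mean was 0.941. Of the 593 genes listed as higher in Trizina, 63.9% fell within that range, against 52.2% of the members, and the median ratio of the 593 was 0.943. These values depend on the scaling. With library 5 scaled by summed counts instead, the median ratio of the listed members was 0.872.

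Of the members with the widest gradient, tetur09g04760 had 8 counts in London library 5, scaled to 0.282 CPM, and lay among the other London libraries. The gene tetur56g90039 had 4 counts, or 0.141 CPM, and lay below them. For tetur169g00020 library 5, at 0.458 CPM, was slightly above the other 3, for tetur33g01670 it was among them at 0.211 CPM, and for tetur25g00560 at 0.881 CPM likewise. The abundant tetur13g03510 had 6.41 CPM, under the 9.37 to 17.0 CPM of the other London libraries.

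**Figure D5:**
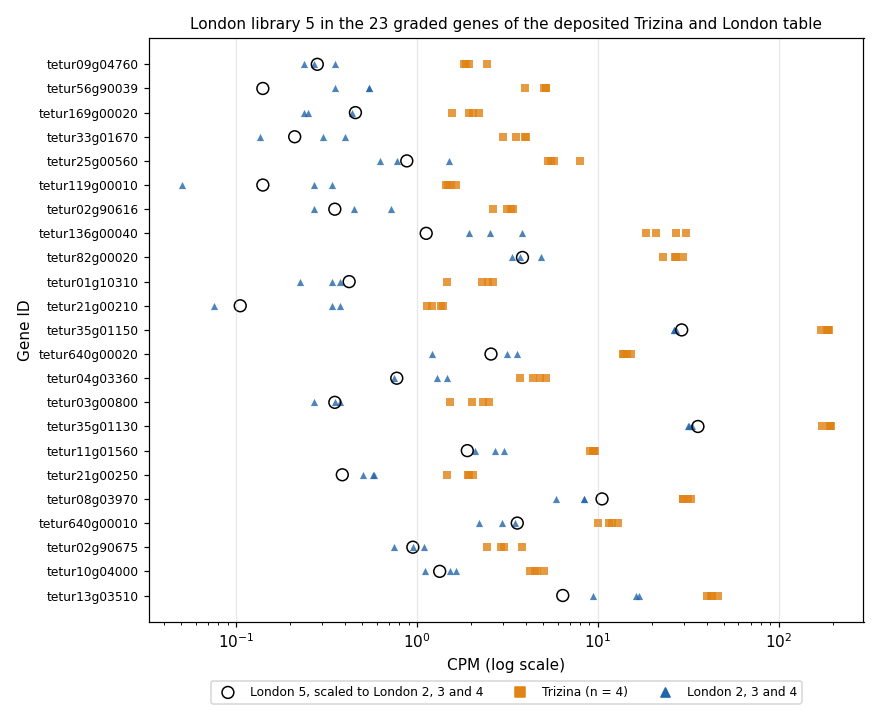
CPM (log scale) in Trizina libraries (squares), London libraries 2, 3 and 4 (triangles) and London library 5 scaled to them (open circles) for the 23 graded genes in the authors' deposited Trizina and London table. Library 5 lies below every Trizina library in all 23 rows, and above or below the other London libraries in 11.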

How the data were processed

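Per the submitters' processing notes, the tools were HISAT2 2.1.0, SAMtools 1.10, featureCounts 1.6.0 and edgeR; their settings, the build and annotation, and whether counting used strand are not given in the sources used here, so overlapping, antisense and near-identical genes are uncertain. The authors deposited raw read counts per gene, and 2 comparison tables with log2 fold changes and false discovery rates (adjusted p-values), per the file headers. The header of the raw table names 12 libraries and its lines hold 11 values; columns were identified by their equality with the named columns of the comparison tables at all 1458 and 967 genes listed there, and no column was London library 5. The planned fit of all libraries therefore used 11.

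Levels are CPM on column totals unless TMM is named. Counts were fitted with edgeR 4.0.16 in R 4.3.3 (filterByExpr, TMM, robust quasi-likelihood, strain as the only term, all strains in 1 fit), a procedure also tested on simulated data; DESeq2 1.42.0 was an alternative. The members, lists and tests were chosen with earlier results of these data known. Named genes were the 6 of highest mean CPM, the 6 of widest ratio, those nearest each limit, neighbouring pairs, those of most even and uneven steps and of least and most spread, and the 5 widest with a London library 5 value. The other members of small scaffolds, and tetur35g01140, were named after their values were seen. Planned lists by gene description could not be applied.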

Additional observations from a re-analysis of the deposited data

Results flagged for a closer look

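In 60 groups of 4 libraries (the named genes and the summed level in BC2018-14 and Trizina), 4 had 1 library far from the other 3, where chance flags about 1 in 20 groups. All 4 were in Trizina. The summed level was lowest in library 4, at 809 CPM against 877 to 884 CPM, a gap of 0.908 of the range. The gene tetur35g01130, a large part of that sum, was also lowest in library 4, at 175 CPM against 192 to 195 CPM (0.870 of the range). Library 5 was low for tetur56g90039, at 3.95 CPM against 5.03 to 5.19 CPM (0.865), and library 6 was high for tetur25g00560, at 8.03 CPM against 5.34 to 5.71 CPM (0.864).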

How the results depend on the processing

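The number of members depended on the limits: a step of 1.5 gave 129 genes, a step of 2 gave 34, and a London minimum of 1 CPM gave 37. Without the condition on overlap there were 79, and leaving out each library gave 57 to 72, of which 53 to 61 were among the 62. By adjusted p without the fold limit (edgeR), 61 members were called higher in BC2018-14 than in Trizina and 58 higher in Trizina than in London. Calls over all 14394 tested genes, in either direction, rose to 5699, 5254 and 6775 (BC2018-14 against London), from 2172, 2531 and 3121. Calls in 1 direction without the fold limit were not counted over all genes. The same contrasts chose the members, so nothing is read from the member counts here. With at least 5 CPM in at least 4 libraries, 10015 genes were left to test. Calls over them in either direction, with the fold limit, were 1028, 966 and 1378. Only 44 of the 62 members were then tested, and 25, 29 and 44 of them were called higher. With library size alone in place of TMM, the median log2 fold change of all tested genes was 0.17 for Trizina against London and 0.25 for BC2018-14 against London. The share of calls that were higher in BC2018-14 than in London went from 35.4% to 48.2%. Members called higher were then 39, 50 and 62, where 846, 1330 and 1581 of all 14394 tested genes were called in those directions. With DESeq2 35, 40 and 62 members were called higher, and 2249, 2572 and 3167 of all genes in either direction. Leaving out each library gave 34 to 37, 36 to 44 and 62 members called higher. Over all genes, calls in either direction were then 1928 to 2321, 2375 to 2611 and 2962 to 3219. TMM moved the summed level to 1756 CPM in BC2018-14 and 268 CPM in London, and the median ratios to 2.28 (Trizina to London) and 5.86 (BC2018-14 to London). No named gene changed direction with TMM, and no member could have, given steps of at least 1.7. No paired analysis was possible, because the library titles do not say which libraries of different strains belong together. London and Trizina share only replicate numbers 4 and 5, BC2018-14 has letters, and London 5 has no genome-wide counts here. London levels of the rarest members rest on as few as 1 count in a library.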
